A study of Bos taurus with 20 samples.

Results

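INSL3, the hormone insulin-like peptide 3, and the receptors RXFP1 and RXFP2 were followed through the cell types of the bovine antral follicle. These 3 genes were taken by name from the 22550 genes or transcripts of a custom Agilent bovine microarray, with every non-control probe that carried their name. The data came from 20 arrays hybridized in 1 colour with Cy3-labelled cRNA, with 4 arrays for each of 5 groups. These were theca cells (TH), cells of the granulosa (GC), the cumulus cells around the oocyte (CC), CC after 4 h of in vitro maturation (CC after IVM), and oocytes. All samples were collected from 3 to 6 mm follicles of ovaries from slaughtered cows, so no group was treated apart from the CC kept in IVM, and immature cells of the same type served as their reference. TH were scraped from the follicle wall, so that vessels, blood cells, and connective tissue could be taken with them, and GC were recovered from the punctured follicles. RNA was extracted with Trizol, and 200 ng of total RNA were labelled for each array. In such bulk samples, fewer cells of a type and less RNA per cell cannot be told apart.

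The peptides of the relaxin family are small hormones related to insulin. INSL3 is made by the Leydig cells of the testis and by the theca interna of the follicle, and it binds RXFP2, a G protein-coupled receptor with a large extracellular domain of leucine-rich repeats. RXFP1 is the closely related receptor of relaxin. Both receptors act mainly through adenylyl cyclase and cyclic AMP, and in the follicle INSL3 is known as a theca hormone that takes part in androgen production.

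Each member had 2 probes of 60 bases. The INSL3 probes were designed on transcript ENSBTAT00000027848 (chr7:5252672-5254252, a span of 1581 bases), those of RXFP1 on ENSBTAT00000013620 (chr17:41318286-41446129), and those of RXFP2 on ENSBTAT00000020135 (chr12:29234959-29280832), with coordinates and bovine build UMD 3.1 as the array files give them. The place of a probe within its transcript was not analysed here. The sequences are shown, 5′ to 3′, because the 2 probes of a gene did not always report the same difference. Of INSL3, the last 30 bases of each probe are given, with the polyadenylation hexamer AATAAA in capitals. The reading frames of the first INSL3 probe all held a stop codon, whereas each RXFP1 and RXFP2 probe had 1 frame without a stop.
INSL3 probe 1, last 30 bases: tcctcaatagtaAATAAAtaagatgcctgc
INSL3 probe 2, last 30 bases: agatgccagacactcttctcaatgttctca
RXFP1 probe 1: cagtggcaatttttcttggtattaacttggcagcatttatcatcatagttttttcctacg
RXFP1 probe 2: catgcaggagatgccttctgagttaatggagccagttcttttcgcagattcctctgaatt
RXFP2 probe 1: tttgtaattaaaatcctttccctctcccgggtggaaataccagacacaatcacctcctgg
RXFP2 probe 2: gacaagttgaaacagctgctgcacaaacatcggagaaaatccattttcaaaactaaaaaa
None of these 6 probes shared a run of 25 bases with another probe of the array, on either strand.

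Levels are given on the log2 scale, as the processed intensity of the scanner file relative to the 75th percentile of its array. The median was taken over the spots of a gene. A level of 0 is therefore that of a probe brighter than 75% of the array, and a difference of 1 is a doubling. A gene was counted as detected on an array where at least 1 of its probes was marked well above background. Between 49.35 and 68.75% of the probes of an array carried this mark, with oocyte replicate 2 the lowest, and no spot was saturated. The precision of every comparison is limited by the 4 arrays per group. Differences were tested with limma and Benjamini-Hochberg adjustment over all 22550 genes, with a threshold of 0.05. The median difference over all genes was -0.225 for TH minus GC, 0 for TH minus CC, 0.424 for TH minus oocyte, and 0.155 for GC minus CC, and the members' differences can be read against these shifts.

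The marker genes were checked against the labels. CYP17A1, the androgen-forming enzyme of the theca, was detected on 4 of 4 TH arrays, on 1 GC array, and on no CC or oocyte array, with a level in TH at least 28.1-fold that in GC (limma adjusted p = 9.4e-07). Of the 5 granulosa and cumulus markers, 4 were lower in TH than in GC and 5 lower than in CC. Over all genes, 14.5 and 17.4% were called lower in these comparisons. Among the markers was FSHR, the receptor of FSH, at -5.58 against CC (limma adjusted p = 7.2e-09). The 6 oocyte markers were all higher in the oocyte than in TH, as were 32.5% of all genes. The markers of other cells of the follicle wall were also in TH: 5 of 5 stroma and muscle markers, 3 of 4 endothelial markers, and 1 of 4 blood cell markers were higher in TH than in GC. Of all genes, 11.8% were called in this direction.

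INSL3 was detected on all 20 arrays and was highest in TH. In TH its level was 8.86, 8.20, 8.72, and 7.90 on replicates 1 to 4. In GC it was 4.39, 6.23, 5.96, and 4.57. In CC it was 4.27, 4.70, 4.38, and 4.79. The lowest TH array lay above the highest array of any other group, and the CC arrays were close together, whereas GC replicates 2 and 3 stood above the other GC arrays. In CC after IVM the level was 4.34, 4.03, 4.50, and 4.70. In the oocyte it was -3.90, -2.42, -3.63, and -2.55, below every somatic array.

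The F-test of limma across the 4 cell types called INSL3 (adjusted p = 1.2e-11), as it did 71.3% of all genes. INSL3 was higher in TH than in GC by 3.13 ± 0.43 (log2 difference ± SE, n = 4, limma adjusted p = 5.5e-05), which is 8.76-fold with a 95% confidence interval of 4.62 to 16.6. In this comparison 11.8% of all genes were called higher in TH. Against CC, the difference was 3.88 ± 0.43, or 14.8-fold (7.80 to 28.0, limma adjusted p = 4e-06), where 14.4% of all genes were called higher in TH. The value in TH was 2990-fold that in the oocyte (1580 to 5660, limma adjusted p = 2.6e-12), a comparison with 32.1% of genes called in this direction. Within slide 1, which held replicates 1 and 2 of these 4 cell types, TH exceeded GC by 3.22 and CC by 4.04. Within slide 2, with replicates 3 and 4, the differences were 3.04 and 3.73, and each stayed past the threshold (adjusted p of 0.0053 to 0.046 over the 4 values).

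The order of INSL3 levels was TH, GC, CC, CC after IVM, and oocyte, but the 3 groups in the middle did not differ beyond their spread. GC was above CC by 0.75 ± 0.43 (95% confidence interval -0.17 to 1.68, limma adjusted p = 0.34), while 9.88% of all genes were called in either direction. In a fit of all 20 arrays, GC was above CC after IVM by 0.90 ± 0.40 (limma adjusted p = 0.11, against 28.1% of genes called in either direction). In that fit, TH was above CC after IVM by 4.03 ± 0.40 (adjusted p = 1.3e-07), as for 18.5% of all genes. The oocyte was lower than each somatic group. GC exceeded it 341-fold and CC 202-fold (limma adjusted p = 9.4e-11 and 2.7e-10), with 37.9 and 32.0% of genes called higher in GC and in CC. CC after IVM exceeded the oocyte 183-fold (adjusted p = 2.9e-12 in the fit of 20 arrays), as 49.8% of genes did.

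**Figure D1:**
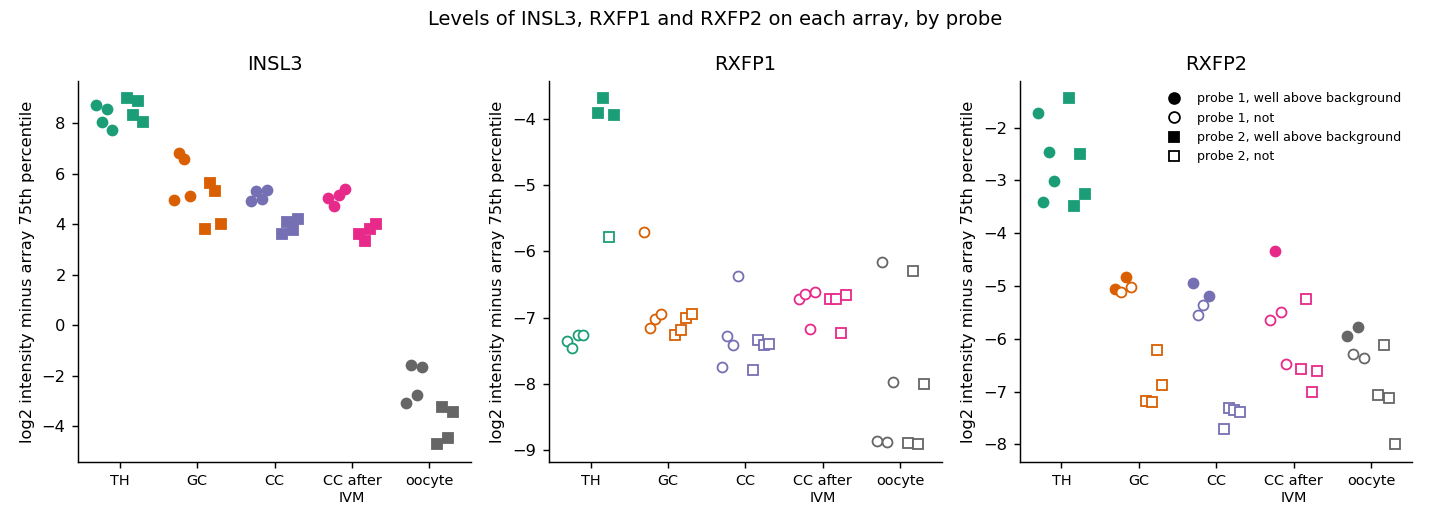
Level of each probe of INSL3, RXFP1, and RXFP2 on each of the 20 arrays (y axis, log2 intensity relative to the array's 75th percentile; x axis, 4 arrays per group). Circles are probe 1 and squares probe 2, filled where the probe was well above background and open where it was not; INSL3 is filled throughout, RXFP1 on 3 TH arrays by probe 2, and RXFP2 by both probes in TH.

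The 2 INSL3 probes gave the same direction but not the same size. The log2 signal of probe 1 minus that of probe 2 was -0.346 to -0.279 on the TH arrays, 1.14 to 1.25 in GC, 1.12 to 1.34 in CC, 1.34 to 1.42 in CC after IVM, and 1.65 to 1.78 in the oocyte. The gap between the probes was thus narrow within a group and did not overlap between TH and any other group. In consequence TH exceeded GC by 2.38 ± 0.44 with probe 1 and by 3.88 ± 0.43 with probe 2 (limma adjusted p = 0.00096 and 9.7e-06 over all 61325 probes). Against CC the values were 3.11 with probe 1 and 4.66 with probe 2. Against the oocyte they were 10.54 and 12.55, or 1490-fold and 6010-fold, and both folds lie outside the confidence interval given for the gene, which covers the spread between arrays and not that between probes. The processed intensities were 174000 to 234000 for probe 1 and 214000 to 297000 for probe 2 in TH, against 16500 to 26700 and 6500 to 12300 in CC. Whether the signal was still proportional to the RNA at the brightness reached in TH was not tested.

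The GC arrays with more INSL3 were also those with a higher summed level of stroma and muscle transcripts of the follicle wall. The summed level of the 5 stroma and muscle markers (COL1A1, COL1A2, DCN, ACTA2, and MYH11), all detected on every GC array, was 3.58, 5.42, 5.42, and 3.68 on GC replicates 1 to 4, between 8.46 and 8.57 in TH, between 2.46 and 3.22 in CC, between 1.56 and 2.91 in CC after IVM, and between 0.156 and 0.654 in the oocyte. Of these 5 markers, MYH11 did not follow the sum, at 1.23, 0.78, 1.67, and 0.28 on GC replicates 1 to 4. The summed level of the 5 granulosa and cumulus markers on the GC arrays was 7.70, 6.79, 6.91, and 8.82, lowest on replicates 2 and 3. LHCGR, the LH receptor of theca cells, was at -7.26, -3.97, -5.84, and -6.94 on the same arrays and was detected on replicates 2 and 3. STAR and CYP11A1, which GC can also express, were instead highest on replicate 4, at 1.49 and 3.80. The part of theca RNA in the GC value of INSL3 was not tested. Without GC replicate 2 the difference TH minus GC was 3.44, and without GC replicate 3 it was 3.36, both still past the threshold.

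In CC, INSL3 was detected on every array while CYP17A1 was on none. The CYP17A1 levels were -7.34 to -6.30, and LHCGR had values of -7.40 to -7.20 and was marked on 2 of the 4 arrays. Of the 4 theca steroidogenic markers on the array (CYP17A1, LHCGR, STAR, and CYP11A1), 2 or 3 were detected on each CC array, and STAR and CYP11A1 were on all of them. Their summed level was 2.53 to 3.18 in CC, 1.25 to 4.07 in GC, and 4.22 to 5.22 in TH. The part of theca RNA in the CC value was not tested.

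**Figure D2:**
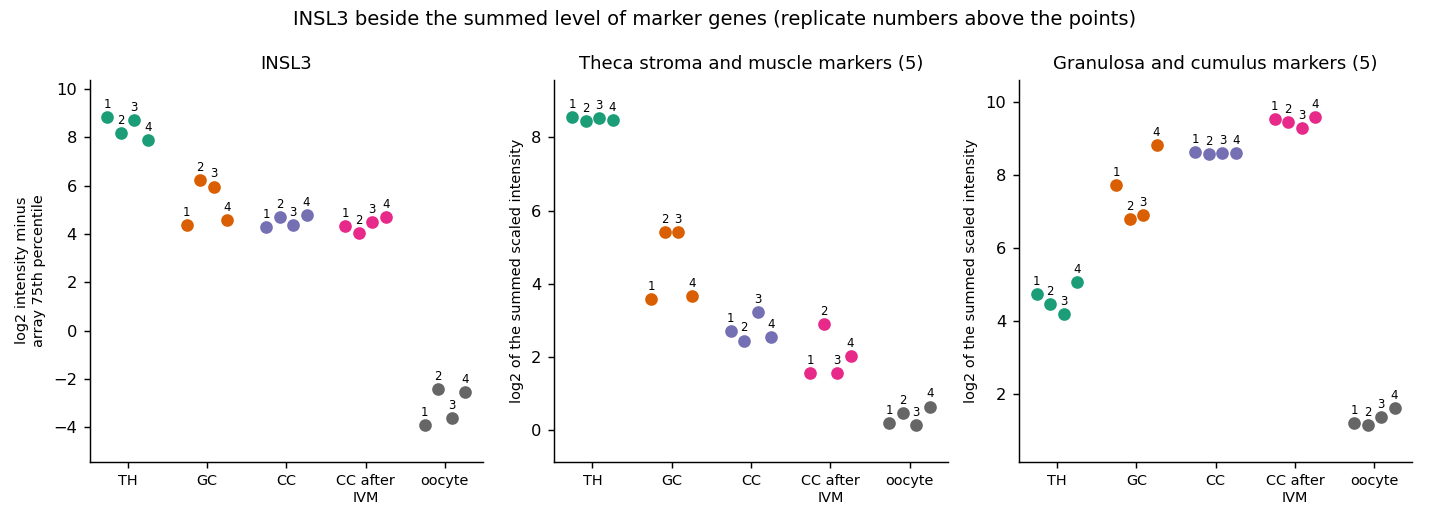
INSL3 (left, log2 intensity relative to the array's 75th percentile) beside the log2 summed scaled intensity of 5 theca stroma and muscle markers (middle) and 5 granulosa and cumulus markers (right), for 4 arrays per group with the replicate number above each point. GC replicates 2 and 3 are above replicates 1 and 4 in the left and middle panels and below them in the right panel.

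IVM for 4 h was not accompanied by a detectable change of INSL3 in CC. CC after IVM minus CC was -0.14 ± 0.22 (95% confidence interval -0.63 to 0.34, limma adjusted p = 0.61), and the groups overlapped. The median over all genes in this comparison was 0.366, relative to which INSL3 was at -0.51, but it was 0.013 over the 14760 genes above background in CC or CC after IVM. In all, 30.3% of genes were called higher and 15.5% lower after IVM. With the log2 table that the authors deposited, the difference was -0.59 and passed the threshold (adjusted p = 0.021). The 4 arrays of CC after IVM shared a slide that held no other sample, so slide and culture cannot be told apart. Markers of other cells moved in the same comparison. All 4 blood cell markers and 3 of 4 endothelial markers were called higher after IVM. Among these, PTPRC and CDH5 were detected on no array of either group, so their calls compare groups at background. HBB, another of the blood cell markers, was detected on no CC array and on 2 arrays after IVM, so its call rests partly on values near background. The summed levels were -0.525 to 0.912 against -2.94 to -1.34 in CC for blood cells and -2.48 to -0.93 against -3.90 to -3.63 for endothelium. Of the 6 oocyte markers, 4 were lower, among them ZP4 and ZP2, each detected on 4 CC arrays and on 2 after IVM (limma adjusted p = 0.015 and 0.018), and the summed level of the 6 was -2.64 to -0.837 against -0.833 to 1.59 in CC. Of the 5 granulosa and cumulus markers, 4 were lower and 1, INHBA, higher. Their summed level was nevertheless higher after IVM, at 9.29 to 9.59 against 8.58 to 8.62 in CC. The part of these cells in the values after IVM, here and for the gene lists, was not tested.

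RXFP2, the receptor of INSL3, was also highest in TH. Its level there was -1.58, -3.45, -2.47, and -3.14, and both probes were well above background on every TH array. In GC it was -6.12, -6.15, -5.52, and -5.95. In CC it was -6.33, -6.42, -6.36, and -6.29. The TH arrays were spread widely, with replicate 1 the highest, and none overlapped with another group. In CC after IVM the level was -6.11, -4.79, -6.25, and -6.55, with replicate 2 the highest array outside TH. In the oocyte it was -6.51, -6.21, -6.45, and -7.18. Outside TH, probe 2 was well above background on no array, and probe 1 on 2 GC, 2 CC, 1 CC after IVM, and 2 oocyte arrays.

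Because RXFP2 was dim outside TH, its differences are bounds, in which the dim group was set on each array to the higher of its own value and the weakest signal well above background. A bound compares group means without sampling error, and it holds for the main processing only. Under other scalings the measured log2 difference of RXFP2 from GC was as low as 0.77, below the bound. The same held for bounds of other genes, such as CYP17A1 against GC, with a measured difference as low as 2.61 and a log2 bound of 4.81. An adjusted p beside a bound tests the measured difference and not the bound. Probe 1 gave the lower bounds, by which RXFP2 in TH was at least 4.97-fold the level in GC, 5.80-fold that in CC, and 6.79-fold that in the oocyte (limma adjusted p = 2.5e-05, 5.6e-06, and 4.6e-08 over all 61325 probes). With probe 2 alone the bounds were 5.14, 6.68, and 9.38. The measured differences of the gene, the median over both probes, were 3.28, 3.69, and 3.92 (each ± 0.33, n = 4, limma adjusted p = 2.4e-06, 3.9e-07, and 2.8e-08). The corresponding differences were 2.36, 2.61, and 3.44 with probe 1 and 4.19, 4.77, and 4.41 with probe 2. Within slides 1 and 2 TH exceeded GC by 3.62 and 2.93 and CC by 3.86 and 3.52, all past the threshold. Against CC after IVM the bound was 4.08-fold with probe 1 and 4.21-fold with probe 2 (limma adjusted p = 8e-07 for the gene in the fit of 20 arrays). Bounds of genes other than the members refer to the median over their spots. At the level of the gene, no pair of GC, CC, CC after IVM, and oocyte passed the threshold for RXFP2 (limma adjusted p from 0.087 to 0.98). Single probes did: probe 1 was called higher in GC and CC than in the oocyte (limma adjusted p = 0.0044 and 0.022 over all 61325 probes). Probe 2 was called higher in CC after IVM than in CC (adjusted p = 0.037). With RXFP2 at or near background in these groups, no fold is given.

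RXFP1, the relaxin receptor, was at the limit of detection. Its gene level was -5.63, -5.58, -6.52, and -5.61 in TH, and it ranged from -7.17 to -6.49 in GC, from -7.76 to -6.88 in CC, from -7.20 to -6.63 in CC after IVM, and from -8.89 to -6.23 in the oocyte. TH replicate 3 was the lowest TH array and fell below the highest oocyte and GC arrays. The signal in TH came from probe 2 alone, with -3.92, -3.69, -5.78, and -3.95, and it was well above background on replicates 1, 2, and 4. Probe 1 was well above background on no array of any group, and its TH values of -7.46 to -7.26 were within the range of the other groups.

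For RXFP1, the test over the 4 cell types passed the threshold (limma adjusted p = 0.0042), as did TH minus CC (measured difference 1.51 ± 0.46, adjusted p = 0.021) and TH minus oocyte (2.16 ± 0.46, adjusted p = 0.00067). TH minus GC was 1.07 ± 0.46 and did not pass (adjusted p = 0.11). At the level of the gene, the bound was under 1 for GC and CC, so that no fold can be given, and it was 1.05 for the oocyte. With probe 2 alone the level in TH was at least 1.62-fold that in GC, 2.11-fold that in CC, and 2.96-fold that in the oocyte (limma adjusted p = 0.0011, 0.00027, and 1.5e-05 over all 61325 probes). With probe 1 alone, TH minus GC was -0.62 and TH minus CC -0.13 (adjusted p = 0.46 and 0.90). Within slide 1 TH exceeded CC by 1.93 and within slide 2 by 1.08, and neither value passed the threshold (adjusted p = 0.20 and 0.14). Without TH replicate 1, TH replicate 2, or CC replicate 1, TH minus CC was 1.44, 1.42, or 1.36 and did not pass (limma adjusted p = 0.052, 0.052, and 0.062), while without oocyte replicate 2 TH minus GC was 1.07 and did (adjusted p = 0.0086).

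**Figure D3:**
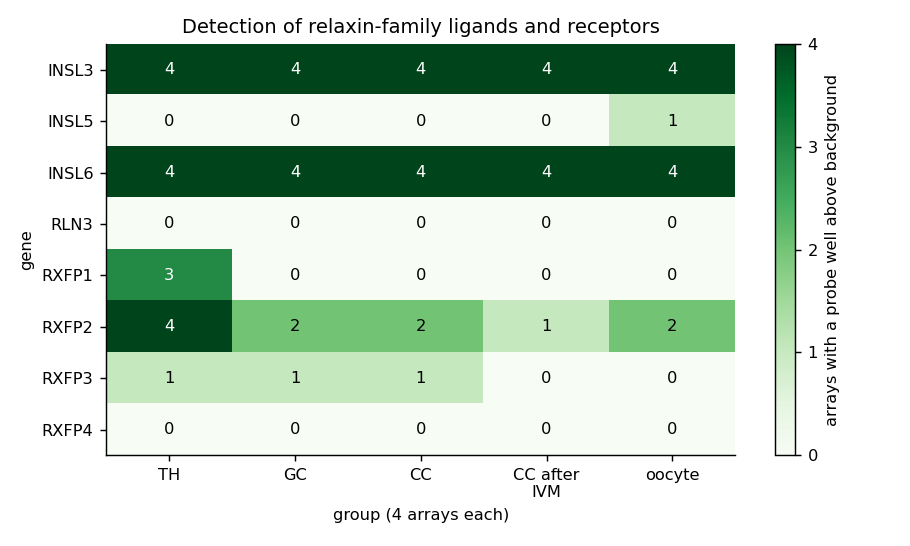
Number of arrays (0 to 4, as colour and figure) on which at least 1 probe of each relaxin-family ligand or receptor (rows) was well above background in each group (columns). INSL3 and INSL6 were detected on 4 of 4 arrays in every group and RXFP2 in TH, whereas RLN3 and RXFP4 were detected on none.

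Of the other ligands of the family, INSL6, a peptide best known from the testis, was detected on all 20 arrays. Its level was -1.51, -2.43, -1.62, and -2.10 in TH, -4.59 to -2.98 in GC, -3.57 to -3.34 in CC, -3.74 to -2.56 in CC after IVM, and -2.70 to -2.34 in the oocyte. The TH arrays lay above all GC and CC arrays but overlapped with the oocyte. INSL6 was 3.19-fold higher in TH than in GC (2.06 to 4.94) and 2.94-fold higher than in CC (1.90 to 4.55; limma adjusted p = 0.00051 and 0.0007). The difference from the oocyte was 0.63 ± 0.30 and did not pass (adjusted p = 0.074), and that between CC after IVM and CC was 0.42 ± 0.27 (adjusted p = 0.22). INSL5, a peptide of gut endocrine cells, was detected on 1 oocyte array and nowhere else, and RLN3, the neuropeptide relaxin-3, on none. Both were called higher in CC after IVM than in CC, and INSL5 higher in the oocyte than in TH and CC, but these calls compare groups at background and carry no fold. The sign of TH minus oocyte for INSL5 turned with normexp background correction and with the deposited table, and that of RLN3 after IVM turned with quantile normalization. No gene of the array was named RLN1 or RLN2, so neither was measured here. RXFP3 and RXFP4, the receptors of relaxin-3 and INSL5, were detected on 3 arrays (1 each of TH, GC, and CC) and on none, and no contrast of TH with GC, CC, or oocyte passed for either.

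Downstream of the receptors, 27 genes for G protein subunits, adenylyl cyclases, protein kinase A subunits, cyclic AMP phosphodiesterases, and CREB factors were followed, of which 23 were detected on at least 3 arrays of a group. In TH compared with GC, 10 were higher, 3 lower, and 14 did not pass (median difference 0.35, against -0.225 over all genes, of which 11.8% were called higher and 14.5% lower). In TH compared with CC, 9 were higher, 5 lower, and 13 did not pass (median 0.56, with 14.4% of all genes called higher and 17.4% lower). In TH compared with the oocyte, 12 were higher and 5 lower (median 0.61, with 32.1% of all genes called higher and 32.5% lower). Adenylyl cyclases were among the genes with the largest differences. ADCY4 was at 0.20 to 1.16 in TH and at -5.99 to -2.83 in GC, and TH minus GC was 5.46 ± 0.55 (limma adjusted p = 2.7e-06), or 3.11 to 5.60 over the scalings. GC replicates 1 and 4, at -5.99 and -5.79, lay below the weakest signal well above background of their arrays. The size against GC thus rests partly on values near background. In CC it was at -6.21 to -5.67, below the weakest signal well above background of each array, so that no size is given for the call against CC (adjusted p = 2.2e-07). Its level in TH was at least 91.7-fold that in the oocyte. ADCY2 was not well above background in GC or CC, and its level in TH exceeded them at least 2.72-fold and 3.53-fold (adjusted p = 1.7e-05 and 1.4e-06). ADCY7 in TH exceeded CC at least 9.04-fold (adjusted p = 2.1e-05).

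GNAO1, a G protein subunit to which RXFP2 is known to couple, was at least 6.82-fold higher in TH than in GC and 8.86-fold higher than in CC (limma adjusted p = 7.6e-08 and 7.1e-09), and was detected on every oocyte array. Over the scalings these measured log2 differences were as low as 1.18 and 1.56. In contrast, GNAS, which encodes the stimulatory subunit, was detected on all arrays and was lower in TH, with differences of -0.69 from GC and -1.11 from CC (limma adjusted p = 0.04 and 0.0015). ADCY1 and ADCY6 were lower in TH than in CC, with ADCY6 at -1.88 ± 0.42 (adjusted p = 0.0025) and the ADCY1 level in CC at least 1.35-fold that in TH (adjusted p = 0.00065). PRKAR2B, a regulatory subunit of protein kinase A, was higher in TH than in the oocyte by 5.97 ± 0.17 (adjusted p = 1.8e-13), and GNAI1 was lower (difference of -2.75, adjusted p = 1.1e-09). ADCY9 was called lower in TH than in GC, CC, and the oocyte, but no fold exceeded its bound. After IVM, 9 of the 27 genes were higher, 3 lower, and 15 did not pass (median 0.61, against 0.366 over all genes, of which 30.3% were called higher and 15.5% lower), so these shares were near those of the whole array. CREM, a cyclic AMP-responsive transcription factor, rose by 4.25 ± 0.30 (adjusted p = 1.2e-05), PDE4B at least 4.41-fold (adjusted p = 3.7e-05), and GNAI1 by 2.78 (adjusted p = 1.7e-05), while ADCY6 fell (adjusted p = 3.2e-05) to levels that lay near background on CC after IVM, with a difference of -3.46 to -0.94 over the scalings. The call of ADCY3 as lower after IVM turned its sign with normexp background correction.

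A list of 9 transcription factors was followed as possible regulators of INSL3, and all were detected. Of these, 5 were higher in TH than in GC, 1 lower, and 3 did not pass (median difference 1.35, against -0.225 over all genes, of which 11.8% were called higher and 14.5% lower). NR2F2, also called COUP-TFII, followed the order of INSL3 in the somatic cells. Its level was 5.21, 5.36, 5.48, and 5.40 in TH, 1.64, 2.53, 2.38, and 1.44 in GC, and 1.31, 1.31, 1.08, and 1.25 in CC. As for INSL3, GC replicates 2 and 3 were the highest GC arrays, and no TH array overlapped with another group. In the oocyte NR2F2 was at 0.98 to 1.37, a level near that in CC, whereas INSL3 was lower in the oocyte than in every somatic group. NR2F2 was higher in TH by 3.37 ± 0.22 compared with GC and by 4.12 ± 0.22 compared with CC (limma adjusted p = 3.6e-08 and 2.2e-09). NR5A1 (steroidogenic factor 1), an activator of INSL3, did not separate these cells, with TH minus GC at 0.34 ± 0.25 and TH minus CC at -0.20 ± 0.25 (adjusted p = 0.38 and 0.66). Its relative NR5A2 was lower in TH, with differences of -5.23 from GC and -5.85 from CC (adjusted p = 5.1e-07 and 8.2e-08).

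The NR4A factors, which are rapidly induced receptors, were higher in TH than in GC. NR4A1 was at 3.12 in TH and 0.87 in GC (difference 2.25 ± 0.28, limma adjusted p = 1.9e-05), but at 3.27 in CC, where INSL3 was lower than in TH. NR4A2 was higher in TH than in GC by 1.85 and than in CC by 1.91 (adjusted p = 0.0012 and 0.0007), and NR4A3 was at least 9.53-fold higher than in GC (adjusted p = 1.5e-05) and higher than in CC by 2.34 (adjusted p = 0.0021). Over the scalings the measured log2 difference of NR4A3 from GC was as low as 1.59, below its bound. NR0B1 (DAX1), a repressor in steroidogenic cells, was higher in TH than in CC by 2.39 ± 0.27 (adjusted p = 3.9e-06) and lower than in the oocyte (difference of -2.99, adjusted p = 5.6e-08). GATA4 and GATA6 were lower in TH than in CC, at -1.19 each (adjusted p = 8e-05 and 0.014). Altogether 4 of the 9 factors were higher and 3 lower in TH than in CC (median -0.14, against 0 over all genes, of which 14.4% were called higher and 17.4% lower). Compared with the oocyte, 7 were higher and 1 lower in TH (median 1.76, against 0.424 over all genes, with 32.1% called higher and 32.5% lower). The largest rises were those of GATA4, GATA6, and NR2F2, with differences of 6.20, 4.76, and 4.09.

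After IVM, 5 of these 9 factors fell and 3 rose (median -1.14, against 0.366), while INSL3 did not pass the threshold. Over all genes 30.3% were called higher and 15.5% lower, a split that turned with quantile normalization to 2754 higher and 3623 lower. NR2F2, which had the order of INSL3 in TH, GC, and CC, was among those that fell, from 1.31, 1.31, 1.08, and 1.25 in CC to -0.72, 1.00, 0.20, and -0.09 after IVM (difference -1.14 ± 0.32, limma adjusted p = 0.021). NR5A2, GATA4, and NR5A1 fell by 3.17, 2.71, and 1.39 (limma adjusted p = 6.6e-05, 2.2e-05, and 0.00077). The size for NR5A1 depended on the scaling, with a difference of -1.72 to -0.08. NR4A3, NR4A2, and GATA6 rose by 4.56, 2.42, and 1.52 (adjusted p = 5.7e-05, 8.5e-05, and 0.0055). NR0B1 was called lower but was not detected on any array of CC after IVM, no fold exceeded its bound, and the sign turned with normexp background correction.

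**Figure D4:**
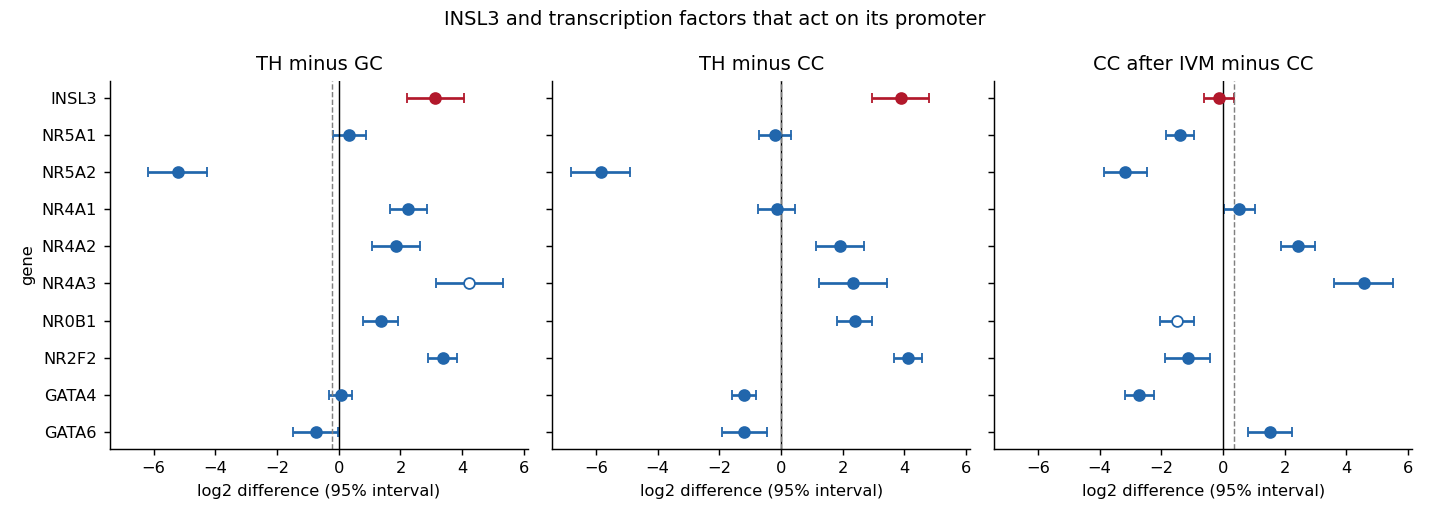
Log2 differences of INSL3 (red) and 9 transcription factors (blue) for TH minus GC, TH minus CC, and CC after IVM minus CC, with 95% confidence intervals (n = 4 per group); open points mark a gene detected on fewer than 3 arrays of a group, the solid line is 0, and the dashed line the median of all genes. NR2F2 is to the right of 0 with INSL3 in both comparisons of TH, and after IVM the factors are on both sides while the interval of INSL3 (-0.63 to 0.34) spans 0.

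The genes next to INSL3 did not share its pattern. In the RefSeq table of a later bovine assembly, JAK3, a cytokine receptor kinase, precedes INSL3 on the chromosome and B3GNT3, a glycosyltransferase, follows it. JAK3 was highest in CC, at -2.15, -1.44, -2.31, and -2.10, and was at -6.73, -6.46, -5.82, and -4.05 in TH, detected there on 1 array. The JAK3 level in GC was at least 3.37-fold and that in CC at least 7.96-fold the level in TH (limma adjusted p = 0.0025 and 5.5e-05). After IVM it fell by 2.75 (limma adjusted p = 0.0056) to levels near background, with a difference of -2.89 to -0.66 over the scalings. B3GNT3, detected on all 20 arrays, was likewise lower in TH than in GC and CC, at -1.61 ± 0.24 and -2.55 ± 0.24 (adjusted p = 1e-04 and 6.3e-07), was highest in the oocyte with 1.67 to 2.06, and fell by 2.72 after IVM (adjusted p = 5.5e-05). Of the genes beside RXFP1, C17H4orf46 and TMEM144, none differed between TH, GC, and CC past the threshold (limma adjusted p from 0.25 to 0.97). The genes listed beside RXFP2 were not on the array.

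**Figure D5:**
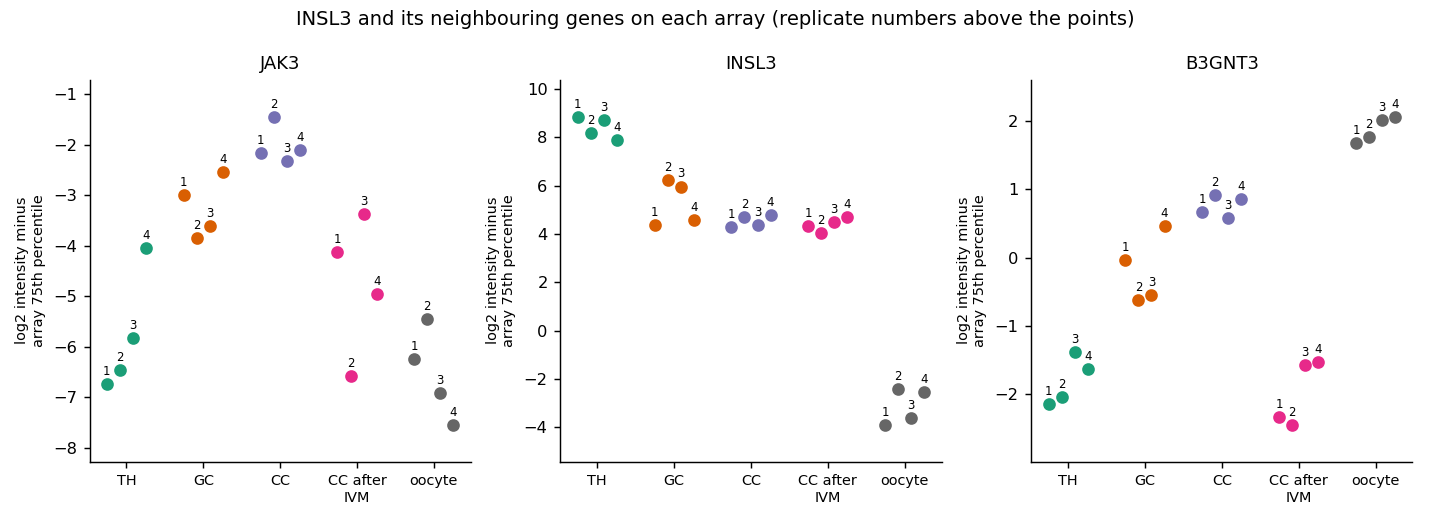
Level of JAK3, INSL3, and B3GNT3, in their order along the chromosome, on each array (log2 intensity relative to the array's 75th percentile, 4 arrays per group, replicate number above each point; each panel has its own y axis). The TH arrays are the highest for INSL3, whereas JAK3 is highest in CC and B3GNT3 in the oocyte.

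Among 17430 genes detected on at least 3 arrays of a group, the 10 whose levels followed INSL3 most closely over the 20 arrays had Pearson's r of 0.977 to 0.987. They were ACTB (beta-actin), GPC (described in the files as glycophorin C), FCGRT (an IgG transport receptor), AEBP1, OCIAD2, COL1A1, GR-A (described as the glucocorticoid receptor), MATN2 (a matrix protein), and the unnamed transcripts ENSBTAT00000064213 and ENSBTAT00000024598. The closest to RXFP2 (r from 0.940 to 0.953) were MME, SULT1B1, GPR4, SCGB3A2, CYB5R3, PRND, TRPC4, DLK (described as delta-like 1), RGS5 (a gene of pericytes), and ENSBTAT00000064232. Those closest to RXFP1 (r from 0.931 to 0.950), led by C1ORF192, TNFSF14, and GRIA4, are of limited use, since RXFP1 was at background on 17 of the 20 arrays. These correlations describe the arrays, which share 5 groups and their scaling. By rank correlation none of the 10 was among the first 10 for INSL3 or RXFP2, and over the 16 arrays without CC after IVM 3 of 10 were for each.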

How the data were processed

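For each array the authors deposited the Agilent Feature Extraction output (version 10.7.3.1 per the file headers, with probes annotated on UMD 3.1), in which the processed intensity of a spot is background-subtracted but not scaled between arrays. The authors also deposited a table of log2 values, for which the sources used here do not describe the steps. Its values equalled log2 of the median pixel signal minus the array median (largest difference 5e-09), with the background left in and a median of 0. The 0 or 1 marks of the deposited files gave detection and outlier spots. Here control spots and outlier spots (0 to 23 per array) were left out, the 75th percentile over 61325 probes was subtracted from log2 processed intensity, and spots of a gene were summarised by their median. The files left 9779 of these probes unnamed, of which 734 took a symbol through their accession from the RefSeq table, and the others were kept under the file's identifier.

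Models were fitted with limma 3.58.1 in R 4.3.3 with data.table (version 1.17.8), over 16 arrays of the 4 cell types, over 8 arrays for CC after IVM against CC, and over all 20 arrays for CC after IVM against other cells. The F-test and pairs follow the study's design, whose analysis of variance with Tukey test was an alternative. The 4 samples per group are biological replicates in the study's methods. Where the dimmer group of a pair had the gene detected on fewer than 3 of its arrays, a bound replaced the fold. The adjusted p stayed that of the measured difference. The fits were tested on simulated data. Loading and plotting used pandas 2.3.3, numpy 2.4.6, and matplotlib 3.10.9 (Python 3.11.15). Alternatives were other scalings (quantile, array median, detected probes), normexp with an offset of 50, the deposited table, other summaries of spots, a filter on dim genes, other sets of arrays, replicate or slide blocks, eBayes with trend, arrayWeights, and leaving out each array. A random slide block for IVM was added after seeing the data. Samples were grouped by their titles.

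The members and gene lists were chosen with earlier results of these data known. Named were the members, the family, the neighbours of members that were on the array, and genes among the 10 most correlated with each member. In the other lists, names came mainly from the 3 largest called rises and falls, and not all of these are given. HSD3B1, RLN1, and RLN2 matched no gene name of the array. A search of the promoters for a motif was not run.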

Additional observations from a re-analysis of the deposited data

Results flagged for a closer look

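In 282 groups of 4 arrays, over the genes named here, 14 held an array far from the other 3, as about 1 in 20 groups do by chance. Of the members, RXFP1 was among them in TH, where replicate 3 was at -6.52 and the others between -5.63 and -5.58. This is the TH array on which its probe 2 was not well above background.

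The same array was low for ENSBTAT00000063336, a transcript chosen for its likeness to RXFP1, with -6.98 against -5.29 to -5.11. TH replicate 4 was low for GATA6 (-1.58, the others -0.16 to -0.01), for GR-A (-1.36, the others -0.51 to -0.46), and for MME (-3.10, the others -2.03 to -1.85). GC replicate 3 was low for FOXL2 (-4.01, the others -3.41 to -3.30). Oocyte replicate 1 was low for NR2F2 (0.98, the others 1.37) and high for VWF, an endothelial marker (1.00, the others -1.32 to -0.95). Oocyte replicate 2, with the fewest probes well above background, was low for ADCY3 (-4.89, the others -4.23 to -4.19) and for ZP2 (4.89, the others 5.36 to 5.44). Among CC after IVM, replicate 1 was low for NR4A2 (0.70, the others 1.56 to 1.67) and for MATN2 (-0.30, the others 0.87 to 1.05). Replicate 3 was low for C1ORF192 (-7.19, the others -6.68 to -6.60), and replicate 2 was high for DLK (-0.50, the others -3.17 to -2.75). Replicate 2 of CC after IVM also had the highest RXFP2 level of its group, -4.79.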

How the results depend on the processing

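The INSL3 differences between cell types kept their direction and side of the threshold under all 35 alternatives each, with 2.38 to 3.88 for TH minus GC, 3.11 to 4.66 for TH minus CC, 10.54 to 12.55 for TH minus oocyte, and 0.44 to 1.05 for GC minus CC (never past the threshold, adjusted p from 0.12). The RXFP2 differences of TH did so too, from 0.77 to 4.19 against GC, 1.12 to 4.77 against CC, and 2.30 to 4.70 against the oocyte. INSL3 after IVM was -0.59 (adjusted p = 0.021) with the deposited table and not past the threshold under the other 22 alternatives. That includes the random slide block, chosen after seeing the data. The cause was not tested.

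RXFP1 depended on the processing. TH minus GC passed the threshold with quantile normalization (1.26), the brightest probe or probe 2 alone (2.76 each), only the 8 arrays of the pair (1.07), arrayWeights (0.93), and without oocyte replicate 2 (1.07), and it reversed with normexp (-0.03) and probe 1 (-0.62). Leaving out each array gave 0.98 to 1.30. TH minus CC no longer passed with normexp (0.24), the deposited table (0.39), within slide 1 (1.93) or slide 2 (1.08), with the analysis of variance and Tukey test (1.51), or without TH replicate 1, TH replicate 2, or CC replicate 1 (1.44, 1.42, and 1.36), and it reversed with probe 1 (-0.13). Leaving out each array gave 1.36 to 1.73. TH minus oocyte no longer passed within slide 1 (1.95) or with probe 1 (0.63), nor did the F-test (adjusted p = 0.22 and 0.20). The cause was not tested. RXFP1 was detected in 0 groups when all 4 arrays were required, and RXFP2 in 5 when 1 array or the weaker mark of a positive and significant signal was enough.

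Arrays with the same replicate number did not all deviate together (correlations over 9531 genes down to -0.264, and -0.224 to -0.025 for CC and CC after IVM). Across TH, GC, CC, and oocyte, the median correlation was 0.055 to 0.144 for the same number and -0.022 for different numbers. For CC and CC after IVM, the median for different numbers was -0.035. These correlations differ in direction between the comparisons, so they cannot decide whether the numbers pair the samples. With the replicate block, INSL3 TH minus GC was 3.13, INSL3 after IVM -0.14, and RXFP1 TH minus CC 1.51, no member's call changed, and genes called after IVM went from 10329 to 7052 (TH minus GC from 5938 to 6111). Of 219 called list differences, 9 turned their sign under another scaling. Genes called higher and lower after IVM were 6824 and 3505, but 2754 and 3623 with quantile normalization, 14768 and 2946 with normexp, 3259 and 3494 of 14760 genes with the filter on dim genes, and 15311 in all with the random slide block. Without CC replicate 1 or 3 the calls fell to 6529 and 6597. Calls of TH minus GC were 2264 within slide 1 and 2814 within slide 2, those of TH minus CC (7164) were 3324 and 4156, and those of GC minus CC (2228) were 187 and 449, against 3915 with arrayWeights and 1195 with the Tukey test. Scaling on detected probes turned the split of TH minus GC from 2671 higher and 3267 lower to 3086 and 2436, and that of TH minus CC from 3241 and 3923 to 4305 and 2791. For GC minus CC it went from 1039 and 1189 to 1446 and 1033, and to 629 and 1716 with the deposited table. TH minus oocyte went from 7239 and 7339 to 14489 and 5427 with normexp and 11879 and 7718 with the deposited table, CC minus oocyte from 7213 and 7161 to 14720 and 5230 and to 12482 and 7267, and GC minus oocyte from 8548 and 6917 to 15222 and 5010 with normexp. Depth here is signal over background, which limits RXFP1 everywhere and RXFP2 outside TH.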
